A study of Mus musculus with 16 samples.

Results

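The comparison set the 4 small RNA libraries of control population 2 against the 4 of control population 1, 8 of the 16 libraries of the study. Members were taken from the labels: each population gave 2 libraries from myoblasts in growth medium (GM) and 2 from cells on day 3 of differentiation (DM3), numbered replicate 1 and 2. That made 4 pairs matched for medium and replicate number. C2C12 is an established mouse myoblast line that leaves the cell cycle and fuses into myotubes when serum is lowered. All 8 libraries came from cells labelled wild-type and, in the culture protocol, PAX7 NEG. GM held 20% fetal bovine serum and the differentiation medium 2% horse serum. The labels do not say how the populations were derived or how long they were kept apart, nor that replicates were separate cultures beyond calling them biological replicates. A p-value therefore measures the spread between these libraries. The other 8 libraries came from 2 triple-knockout clones (tKO) deleted for miR-1a-1, miR-1a-2 and miR-206, and enter here only for comparison.

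A microRNA (miRNA) is a short RNA cut from a hairpin transcript that guides repression of mRNAs, chiefly through pairing of its seed, bases 2 to 8, to sites in the mRNA. Members of a family share a seed, and the let-7 family is known for its rise as cells leave the stem or embryonic state. In muscle, miR-206, miR-1 and miR-133 are induced when myoblasts differentiate. Populations of a cell line can drift apart in culture, so the comparison shows how far the libraries of these populations, both labelled wild-type, differed.

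Reads were counted per miRNA name as deposited, from sequences of 18 to 25 nt without a mismatch, and are given scaled to the sum of these reads in a library (CPM). In edgeR's quasi-likelihood test over both media, with a term for each pair, 50 of 483 tested names (10.4%) had a Benjamini-Hochberg adjusted p under 0.05. Of these, 34 were higher in population 2 (7.04%) and 16 lower (3.31%), with absolute log2 fold changes between 0.50 and 1.53. The names that rose included let-7i-5p and other let-7 members, miR-21, miR-22, miR-155, miR-26, miR-196a and miR-7a. Those that fell included miR-714-5p, miR-712-5p, miR-1249-3p, miR-744-5p, miR-328-3p and let-7d-3p. The same fit without the pairs called 0 names, with 69 at an unadjusted p under 0.05 and a smallest adjusted p of 0.128. DESeq2's Wald test with the pairs called 60, and 47 of the 50 were among them. Under scaling to total counts 16 names were higher and 23 lower, and under DESeq2's size factors 18 were higher and 17 lower. The median of all names shifted by -0.10 on the log2 scale under total counts and by -0.06 under size factors. Both shifts are smaller than the smallest called change, so that all 50 kept their sign under both scalings is no test.

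Mature sequences of the members that the comparison turned on are shown first, from RefSeq on build GRCm38.p6, with the seed in capitals. The let-7 family comes first because its members share a seed and length.
let-7i-5p: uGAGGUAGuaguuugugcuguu
let-7f-5p: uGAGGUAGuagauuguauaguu
miR-98-5p: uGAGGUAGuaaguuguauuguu
let-7g-5p: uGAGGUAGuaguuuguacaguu
let-7e-5p: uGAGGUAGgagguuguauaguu
let-7a-5p: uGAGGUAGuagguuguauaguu
let-7c-5p: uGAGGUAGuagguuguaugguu
let-7d-5p: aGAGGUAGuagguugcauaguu
let-7b-5p: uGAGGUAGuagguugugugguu

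The next set holds names that were higher in population 2 and belong to other seed families, chosen as the abundant or best known of them. The members of the miR-26 family, miR-26a-5p and miR-26b-5p, share the seed UCAAGUA.
miR-21a-5p: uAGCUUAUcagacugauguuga
miR-22-3p: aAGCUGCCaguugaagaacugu
miR-26a-5p: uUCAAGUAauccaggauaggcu
miR-26b-5p: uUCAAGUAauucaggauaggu
miR-155-5p: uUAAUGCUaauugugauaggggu
miR-196a-5p: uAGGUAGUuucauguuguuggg
miR-206-3p: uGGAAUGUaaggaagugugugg

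The last set holds names that were lower in population 2. Apart from let-7d-3p, the arm opposite let-7d-5p in its hairpin, they hold 14 or 15 G or C bases.
miR-615-3p: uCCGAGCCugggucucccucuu
miR-744-5p: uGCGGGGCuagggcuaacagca
miR-423-3p: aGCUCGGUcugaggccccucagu
miR-1249-3p: aCGCCCUUcccccccuucuuca
miR-3102-3p: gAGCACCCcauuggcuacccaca
let-7d-3p: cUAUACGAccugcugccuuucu

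let-7i-5p, from chr10:122985698-122985719 on the minus strand, had the smallest adjusted p of all names. In population 1 it held 26518 and 43345 CPM in GM and 9330 and 22088 CPM in DM3, replicate 1 first. In population 2 it held 48108 and 50176 CPM in GM and 20223 and 41924 CPM in DM3. It was higher in population 2 in 4 of 4 pairs, without overlap in GM, while in DM3 the lower library of population 2 lay below the higher one of population 1. Its log2 fold change was 0.88 ± 0.16 (SE, n = 4 pairs; edgeR quasi-likelihood adjusted p = 0.00101), which is 1.85-fold.

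let-7f-5p, from chr13:48537889-48537910 and a second copy on chromosome X, held 7814 and 11108 CPM in GM and 3718 and 5793 CPM in DM3 in population 1. The values in population 2 were 16862 and 11994 CPM in GM and 5305 and 12638 CPM in DM3. The gap was wide in GM replicate 1 and DM3 replicate 2 and narrow in GM replicate 2. The log2 fold change was 0.82 ± 0.17 (edgeR quasi-likelihood adjusted p = 0.00299).

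The tables list exact mature sequences and other lengths of 1 miRNA under separate names, so the family was also fitted with these names added up, where 45 of 437 names were called (10.3%). In that fit let-7i-5p (0.93 ± 0.18), let-7f-5p (0.87 ± 0.18), miR-98-5p (0.82 ± 0.21), let-7g-5p (0.78 ± 0.19) and let-7e-5p (0.55 ± 0.19) rose, with edgeR quasi-likelihood adjusted p between 0.000826 and 0.0439. The 4 other abundant members did not pass: let-7a-5p was at 0.16 ± 0.17, let-7c-5p at 0.01 ± 0.16, let-7d-5p at -0.08 ± 0.17 and let-7b-5p at -0.22 ± 0.17. Their adjusted p were all 0.449 or more. let-7j-5p, at a mean of 3.39 CPM, was at -0.36 ± 0.88.

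**Figure D1:**
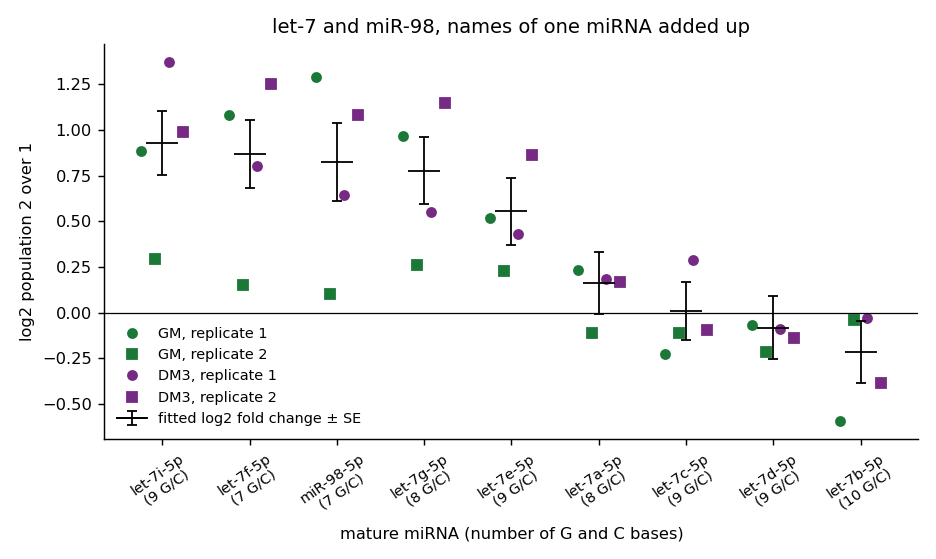
The y axis gives log2 of population 2 over population 1 for let-7 and miR-98 guide strands, ordered by their fitted value, and the x axis names each with its number of G and C bases. Points are the 4 pairs (CPM with 1 added) and black bars the edgeR estimate with its SE; the 5 members on the left lie above 0 in 4 of 4 pairs, while let-7c-5p, with the same 9 G and C bases as let-7i-5p, lies near 0.

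Members with equal numbers of G and C bases are set side by side here. let-7g-5p and let-7a-5p both hold 8, and let-7i-5p, let-7e-5p, let-7c-5p and let-7d-5p all hold 9. In a search made after the values were seen, the 5 bases GGUUG stood in let-7a, let-7b, let-7c, let-7d and let-7e and not in let-7f, let-7g, let-7i or miR-98. These letters occur in 52 of 1679 mature mouse sequences in the RefSeq table (3.10%). The 4 members without them all rose, and of the 5 with them only let-7e-5p did. As the letters were picked from these same members, this split is a description and no test. Members differ by as little as 1 base, and how the authors' tool divided reads that fit several of them is not given in the sources used here. The differences between members were not tested.

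Genomic neighbours in the family are given next. let-7a-1, let-7f-1 and let-7d lie in a row on chromosome 13, at chr13:48538239-48538260, chr13:48537889-48537910 and chr13:48536078-48536099, and of these 5p arms let-7f-5p alone passed the test, though let-7a-5p and let-7f-5p have further copies elsewhere. let-7d-3p, the other arm of the let-7d hairpin, at chr13:48536024-48536045, fell. let-7e-5p lies at chr17:17830366-17830387 beside miR-99b-5p at chr17:17830194-17830215, and miR-99b-5p was at -0.29 (adjusted p = 0.205, edgeR quasi-likelihood). miR-99b-5p was the third most abundant name by mean CPM, with 40670 to 72484 CPM in population 1 and 30631 to 42958 CPM in population 2.

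miR-21, widely known for high levels in proliferating and tumour cells, had the highest mean CPM over the 8 libraries. It was the top name in 5 of them, with miR-27b-3p on top in DM3 replicate 1 of both populations and miR-6240-3p in population 1 DM3 replicate 2. The name miR-21-5p, which holds its length variants, had 77490 and 135971 CPM in GM and 43414 and 56246 CPM in DM3 in population 1. In population 2 it had 150698 and 158079 CPM in GM and 62172 and 97625 CPM in DM3. Population 2 was higher in each pair, and within each medium its lower library lay above the higher library of population 1. The log2 fold change was 0.73 ± 0.14 (edgeR quasi-likelihood adjusted p = 0.00158), and the exact mature sequence, listed as miR-21a-5p, was at 0.71 ± 0.16 (adjusted p = 0.00998).

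miR-22 was among the few with both arms called. miR-22-3p, from chr11:75463772-75463793, held 10623 and 16316 CPM in GM and 8599 and 13088 CPM in DM3 in population 1. It held 16705 and 22515 CPM in GM and 16164 and 21394 CPM in DM3 in population 2. The groups did not overlap within GM or within DM3. The log2 fold change of miR-22-3p was 0.79 ± 0.16 (edgeR quasi-likelihood adjusted p = 0.00176) and that of miR-22-5p was 0.60 ± 0.20 (adjusted p = 0.0468).

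miR-155-5p and miR-146b-5p belong to the list of miRNAs known for induction in inflammation, of which 2 of 4 tested members rose, beside 7.04% of all 483 names called higher. miR-155-5p had 442 and 747 CPM in GM and 118 and 258 CPM in DM3 in population 1, against 765 and 872 CPM in GM and 265 and 505 CPM in DM3 in population 2. Its log2 fold change was 0.83 ± 0.21 (edgeR quasi-likelihood adjusted p = 0.0153). miR-146b-5p was at 0.77 ± 0.22 (adjusted p = 0.0219), and miR-146a-5p, which differs from it near the 3′ end, was at 0.51 ± 0.23 (adjusted p = 0.155). Blood markers were at or near the limit of detection in all 8 libraries: miR-142a-5p, miR-223-3p and miR-144-3p were at 0, and the 6 summed to between 0.789 and 6.77 CPM.

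In the Hox list, made of miRNAs that lie within the Hox gene clusters, 3 of 9 tested names rose and 1 fell, beside 7.04% of all names called higher and 3.31% called lower. The names miR-196a-5p and miR-196a-2-5p, of the same miRNA, count separately among those that rose. miR-196a-5p, the exact mature sequence from chr11:96265187-96265208 and chr15:102973365-102973386, rose by 0.67 ± 0.19, and its length variants under miR-196a-2-5p by 0.78 ± 0.20 (edgeR quasi-likelihood adjusted p = 0.0208 and 0.0156). miR-10a-5p was at 0.57 ± 0.19 (adjusted p = 0.0466) and was higher in 3 of 4 pairs. miR-615-3p lies in the same Hoxc cluster as a copy of miR-196a, at chr15:103014969-103014990, and fell. The mature sequence of miR-615-3p holds 63.6% G and C bases and that of miR-196a-5p 40.9%.

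miR-615-3p was the abundant name that fell. It held 40125 and 24572 CPM in GM and 44532 and 39924 CPM in DM3 in population 1, and 17644 and 18862 CPM in GM and 35942 and 21839 CPM in DM3 in population 2. It was lower in population 2 in each pair, with no overlap within GM or within DM3. The log2 fold change was -0.58 ± 0.16 (edgeR quasi-likelihood adjusted p = 0.0208).

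**Figure D2:**
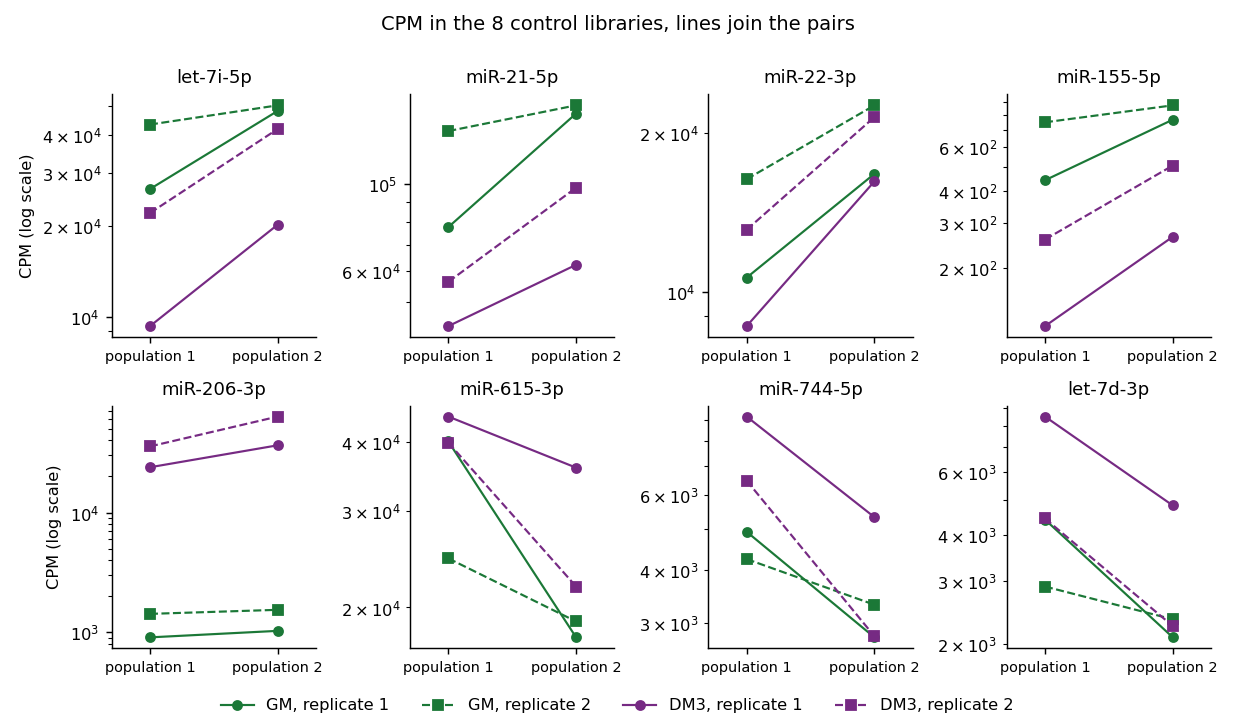
Each panel gives the CPM of 1 miRNA name on a log axis in population 1 and population 2, and each line joins the 2 libraries of a pair (colour, medium; marker and line, replicate). let-7i-5p, miR-21-5p, miR-22-3p, miR-155-5p and miR-206-3p go up and miR-615-3p, miR-744-5p and let-7d-3p go down in 4 of 4 pairs, with the flattest lines mostly in GM replicate 2.

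miR-744-5p held 4913 and 4239 CPM in GM and 9153 and 6476 CPM in DM3 in population 1, against 2777 and 3312 CPM in GM and 5315 and 2793 CPM in DM3 in population 2. The groups did not overlap within either medium. The log2 fold change was -0.69 ± 0.17 (edgeR quasi-likelihood adjusted p = 0.0153). let-7d-3p was also at -0.69 ± 0.17 (adjusted p = 0.0153), and went from 4422 and 2888 CPM in GM and 8511 and 4452 CPM in DM3 to 2091 and 2345 CPM in GM and 4836 and 2247 CPM in DM3. In DM3 its highest library of population 2 lay above the lower library of population 1.

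Other names that fell are given next. miR-328-3p was at -0.65 ± 0.17, miR-1249-3p at -0.89 ± 0.24, miR-1306-5p at -0.81 ± 0.26 and miR-5100-3p at -0.75 ± 0.23 (edgeR quasi-likelihood adjusted p = 0.0162, 0.0182, 0.0392 and 0.0332). miR-3102-3p.2-3p, at a mean of 46.3 CPM, was at -0.87 ± 0.28 (adjusted p = 0.0442). miR-714-5p was a low name, at 42.9 and 38.8 CPM in GM and 118 and 247 CPM in DM3 in population 1 and 16.1, 23.6, 61.0 and 26.4 CPM in population 2. The highest of these values was in population 1 DM3 replicate 2, where 10.1% of reads lay in names that can hold ribosomal RNA fragments. Whether miR-714-5p holds such fragments was not tested. Its fold change moved between -0.80 and -1.99 as single libraries were left out. miR-712-5p, lower in 3 of 4 pairs and named after its values were seen, was at -1.28 ± 0.39 (edgeR quasi-likelihood adjusted p = 0.0485), between -0.57 and -1.80 as single libraries were left out, and called in 3 of these 8 fits.

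Further names that rose were miR-31-3p at 1.00 ± 0.27 (edgeR quasi-likelihood adjusted p = 0.0182), which is 2.00-fold, miR-16-1-5p at 0.77 ± 0.21 and miR-106b-5p at 0.79 ± 0.26. miR-31-3p had 31.6 to 56.0 CPM in population 1 and 57.9 to 117 CPM in population 2, without overlap. In the miR-26 list 2 of 5 tested members rose: miR-26b-5p by 0.75 ± 0.19 and miR-26a-5p by 0.52 ± 0.16. In the miR-7 list 2 of 5 rose, miR-7a-5p and miR-7a-2-5p, and a further name of this arm, miR-7a-1-5p, did not pass (0.44, edgeR quasi-likelihood adjusted p = 0.388). Of all names, 7.04% were called higher. miR-143-3p, a miRNA of smooth muscle and fibroblasts and here among the 10 most abundant names, rose by 0.50 ± 0.14 (adjusted p = 0.0219).

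Arms of 1 hairpin and members of 1 cluster were set side by side, and differences between them were not tested. Of 138 hairpin names with both arms tested, 87 had both arms on the same side of 0, 32 had 1 arm called and 2 had both called, miR-22 and miR-423. Taken singly, 50 of all 483 names (10.4%) were called, and the counts of arms were not tested against this share. Across these hairpins the fold changes of the arms correlated with a Pearson r of 0.33, as a description. miR-31-5p was at -0.11 while miR-31-3p rose, and miR-21-3p was at -0.03 while miR-21-5p rose. The reads of miR-31-5p held 53.2% G and C bases and those of miR-31-3p 42.4%, those of miR-21-3p 57.8% and of miR-21-5p 38.8%. The relation of all names to base composition is given further on. miR-106b, miR-93 and miR-25 are cut from 1 intron of the Mcm7 gene: miR-106b-5p rose, miR-93-5p fell (-0.52 ± 0.17, edgeR quasi-likelihood adjusted p = 0.0466), and miR-25-3p was at 0.24 ± 0.18 (adjusted p = 0.417). Their reads held 42.1%, 51.9% and 50.5% G and C bases. miR-145-3p rose by 0.69 ± 0.21 (adjusted p = 0.0320) while the opposite arm, miR-145-5p, was at -0.28 ± 0.20, with 38.6% and 52.9% G and C bases.

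Of 37 lists of families, clusters and other groups, 14 held at least 1 called member. Names of 1 miRNA count separately in these lists, as with let-7f-5p and let-7f-1-5p, which were both called higher. The let-7 and miR-98 list had 6 of 27 tested members higher and 1 lower, with a median log2 fold change of 0.15 beside 0.02 over all 483 names. With the offset for the G and C share described further on, the median of this list turned to -0.19, beside 0.01 over all names. The miR-22 list had 2 of 2 higher and the miR-15 and miR-16 list 2 of 13. Of all 483 names, 7.04% were called higher and 3.31% lower. The most abundant member of the miR-30 list, miR-30d-5p, at a mean of 30248 CPM, did not pass (-0.32 ± 0.15, edgeR quasi-likelihood adjusted p = 0.155). No member was called in the lists of miR-29 (7 tested), miR-30 (12), miR-125 (7), miR-378 (7), miR-34 (5) or the cell-cycle-exit cluster around miR-322 (11). The Dlk1-Dio3 cluster had 24 names listed and 0 tested, all being too low for the filter.

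The muscle miRNAs checked the labels. In GM the muscle markers summed to between 916 and 1562 CPM, and in DM3 to between 27150 and 37331 CPM in population 1 and between 38303 and 65332 CPM in population 2. miR-133a-3p, with its names added up, went from 2.39 to 13.8 CPM in the GM libraries to 1278 to 2401 CPM in the DM3 libraries. miR-1a-3p, with its names added up, reached at most 90.7 CPM, in population 2 DM3 replicate 2.

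miR-206-3p was the muscle miRNA that passed the test between populations. It held 909 and 1428 CPM in GM and 23846 and 35583 CPM in DM3 in population 1. It held 1030 and 1543 CPM in GM and 36369 and 63146 CPM in DM3 in population 2. In DM3 both libraries of population 2 lay above both of population 1, and in GM the populations overlapped. The log2 fold change was 0.54 ± 0.16 over both media (edgeR quasi-likelihood adjusted p = 0.0255), 0.88 ± 0.23 in DM3 (adjusted p = 0.0240) and 0.20 in GM (adjusted p = 0.814). The difference of these effects, 0.68, did not pass its test (adjusted p = 0.975), so a dependence on medium was not established. The call over both media remained in 1 of the 8 fits that each left out a library. The call in DM3 was lost in 10 of 24 alternative fits, and without the pairs 0 names were called in DM3.

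Neighbours and partners of miR-206-3p did not pass. miR-133b-3p, which is cut from the same primary transcript, was at -0.01 ± 0.28, with 862 and 423 CPM in DM3 in population 1 and 488 and 490 CPM in population 2. miR-133a-3p, with its names added up, held 2401 and 1278 CPM in DM3 in population 1 and 1422 and 1604 CPM in population 2, a log2 fold change of 0.19 over both media (adjusted p = 0.701, edgeR quasi-likelihood). miR-486b-5p, encoded in the Ank1 gene, was at -0.53 ± 0.21 (adjusted p = 0.110) and was lower in population 2 in 4 of 4 pairs. miR-486a-5p was at -0.25, miR-206-5p at 1.68 ± 0.82 (adjusted p = 0.184) with at most 24.1 CPM, and miR-1a-3p, as listed, at 0.39. miR-499-5p was not tested, at no more than 6.10 CPM, and miR-1a-2-5p, miR-133a-5p, miR-208b-3p and miR-1a-1-5p were at 0 in all 8 libraries.

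By medium, 0 of 483 names were called in GM (0.00%), with 43 at an unadjusted p under 0.05 in edgeR and 0 called by DESeq2. In DM3 24 were called (4.97%), 14 higher (2.90%) and 10 lower (2.07%), and 18 of them were also called over both media. The balance turned with the scaling, to 5 higher and 11 lower under total counts and 1 higher and 4 lower under DESeq2's size factors. Without DM3 replicate 1 of population 1 it was 0 higher and 8 lower, and without that of population 2 it was 0 higher and 7 lower. Without DM3 replicate 2 of population 1 it was 1 higher and 0 lower. Without DM3 replicate 2 of population 2, or without the pairs, 0 names were called in DM3. The interaction of population and medium called 0 names (0.00%), with 17 at an unadjusted p under 0.05 and 0 called by DESeq2, so no name was shown to differ in 1 medium only. Its smallest adjusted p was 0.104, for miR-3470b-5p, at 2.26, 10.3, 30.8 and 82.7 CPM in population 1 and 7.76, 12.3, 12.2 and 12.6 CPM in population 2, GM first. The other names with the smallest interaction p at 50 CPM or more in a group were miR-6240-5p, miR-26a-1-5p, miR-3535-3p and miR-34a-5p, with adjusted p between 0.610 and 0.975.

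The 6 names called in DM3 and not over both media were miR-696-5p, miR-696-3p, miR-3470b-5p, miR-714-3p, miR-6240-5p and miR-26a-1-5p, named after their values were seen. miR-26a-1-5p, which holds length variants of miR-26a, had 2765 and 4251 CPM in DM3 in population 1 and 4693 and 7324 CPM in population 2, a log2 fold change of 0.93 ± 0.25 (edgeR quasi-likelihood adjusted p = 0.0272). The other 5 fell in population 2. miR-6240-5p was at 82.1 and 127 CPM in DM3 in population 1 and 42.7 and 35.9 CPM in population 2. Names that can hold ribosomal RNA fragments, miR-6240 among them, took 10.1% of the reads of population 1 DM3 replicate 2 and between 0.189% and 2.69% of those of the other 7 libraries. Of the 4 tested names of this list miR-6236-5p fell, at -0.65 ± 0.19 over both media (edgeR quasi-likelihood adjusted p = 0.0261), beside 3.31% of all names. In a fit without these names and miR-6239, chosen after seeing the data, 35 of 477 names were called over both media, 24 higher and 11 lower, and 21 in DM3, 12 higher and 9 lower. miR-714 and miR-712 were not among the names left out.

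Depth and base composition moved with the population. The libraries of population 2 held 1.19 to 3.78 times as many reads used as their partners, 194915 to 4818026 in population 1 and 328136 to 5726648 in population 2. In population 1 the reads held 49.4% and 47.0% G and C bases in GM and 50.0% and 49.3% in DM3. In population 2 they held 46.2% and 46.4% in GM and 48.7% and 46.8% in DM3. The share was lower in population 2 in 4 of 4 pairs, by 1.85 percentage points on average ± 1.16 (SD of the paired differences), with the gap smallest in GM replicate 2. The two-sided exact permutation test gave p = 0.125, the smallest that 4 pairs allow, and 0.219 after Benjamini-Hochberg adjustment over 14 library properties. Reads under 18 nt were also fewer in population 2 in 4 of 4 pairs, 3.76% against 6.91% on average, as were reads with a non-templated 3′ base, 26.1% against 27.9%.

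**Figure D3:**
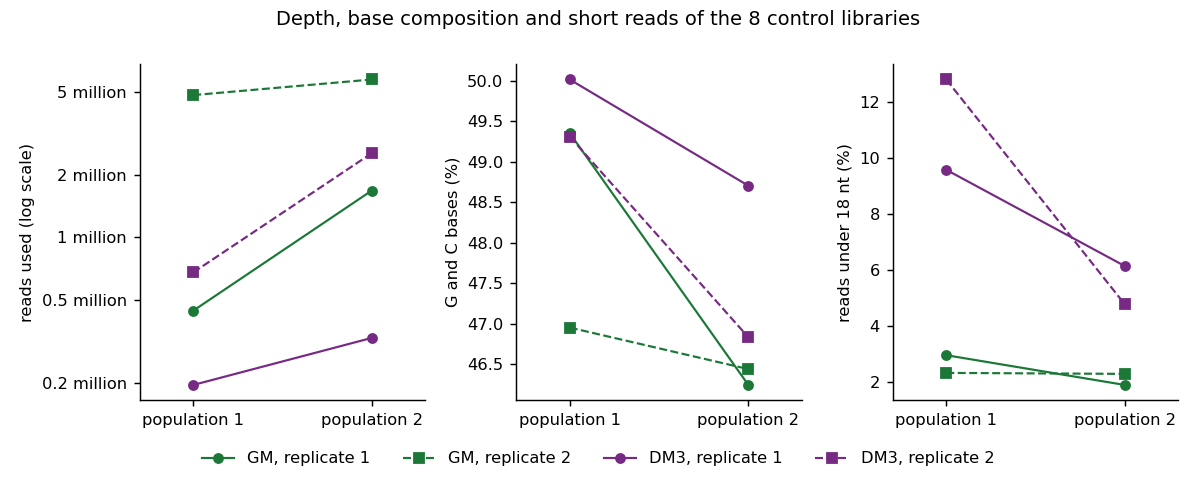
Panels give the reads used (log axis), the share of G and C bases in them and the share of reads under 18 nt, in percent, for each control library, with a line for each pair. Population 2 is deeper and lower in G and C in 4 of 4 pairs, with the smallest gaps in GM replicate 2.

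The names that rose and those that fell did not overlap in base composition. The 34 higher names had reads with 31.8% to 47.6% G and C, and the 16 lower names 50.7% to 81.0%. Among the 73 names under 40% the median log2 fold change was 0.45 and 16 rose. Among the 98 names of at least 60% the median was -0.43 and 11 fell. In between, 15 of 85 names from 40% to under 45% and 3 of 91 from 45% to under 50% rose. Of the names from 50% to under 55%, 3 of 88 fell, and from 55% to under 60%, 2 of 47. Over all 483 names the median was 0.02, with 7.04% called higher and 3.31% lower. Across the 256 names with a mean of at least 50 CPM the fold change and the G and C share correlated with a Pearson r of -0.73. Pair by pair r was -0.70 in GM replicate 1, -0.26 in GM replicate 2, -0.50 in DM3 replicate 1 and -0.66 in DM3 replicate 2, as a description, since the names of a library share its depth and composition.

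**Figure D4:**
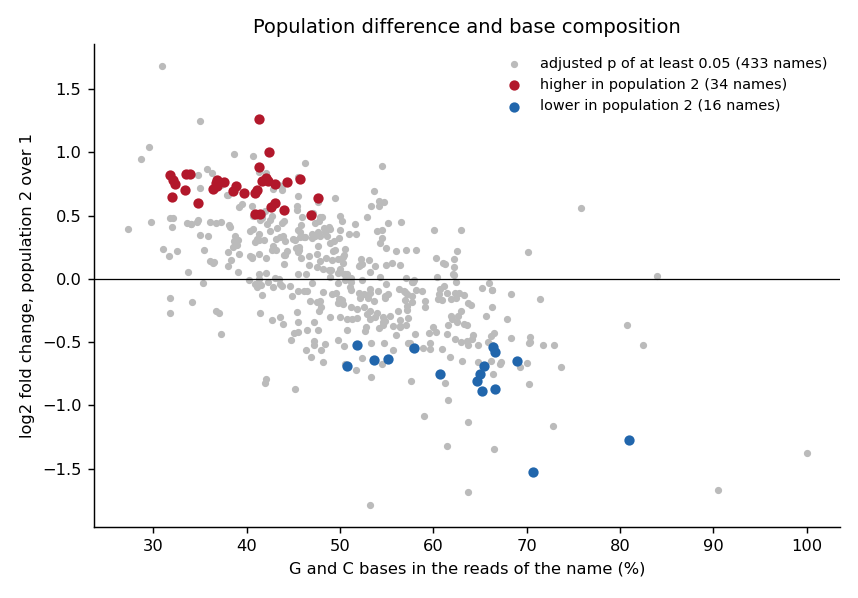
The x axis gives the percentage of G and C bases in the reads of a name and the y axis its log2 fold change of population 2 over population 1 in both media, for 483 tested names. The 34 names called higher (red) all lie below 47.7% and the 16 called lower (blue) all above 50.7%, on a cloud of other names (grey) that slopes the same way.

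Replicates of the same population also differed along base composition. For replicate 2 minus replicate 1, r with the G and C share was -0.55 in population 1 GM, -0.25 in population 1 DM3, 0.18 in population 2 GM and -0.48 in population 2 DM3. For clone 2 minus clone 1 of the tKO cells over both media it was -0.10.

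In a fit with an offset for the G and C share in each library, chosen after seeing the data, 15 names were called (3.11%), 5 higher and 10 lower. Of the 50 names, 4 were among them: let-7i-5p at 0.52 (edgeR quasi-likelihood adjusted p = 0.0241), miR-22-3p at 0.58 (adjusted p = 0.0211), let-7d-3p at -0.70 (adjusted p = 0.0211) and miR-501-3p at -0.47 (adjusted p = 0.0498). All 50 kept their sign, which is no test, since they were selected for their change in these same libraries. Their median absolute log2 fold change went from 0.73 to 0.31. miR-21-5p was at 0.29 (adjusted p = 0.102), let-7f-5p at 0.26, miR-206-3p at 0.28 (adjusted p = 0.261) and miR-615-3p at -0.06. The remaining 11 calls were new to this fit and included both names of miR-24-3p, at 0.48 and 0.51, miR-125b-1-3p at 0.69, let-7d-5p at -0.48, let-7b-5p at -0.49 and both names of miR-365-3p, at -0.82 and -0.72.

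The calls rested on certain libraries. Without population 1 GM replicate 1 the count over both media was 0, without population 2 GM replicate 1 it was 4, without population 1 DM3 replicate 2 it was 2, and without population 2 DM3 replicate 2 it was 4. Without each of the other 4 libraries it was between 34 and 46. In these pairs population 2 was the deeper library by 3.78 times in GM replicate 1 and 3.74 times in DM3 replicate 2. With all libraries thinned to the depth of the smallest, 60 of 285 names were called. Of all 483 names 163 (33.7%) moved the same way in 4 of 4 pairs, 21.3% higher and 12.4% lower.

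Other cell types were looked for by their markers. Endothelial markers summed to 13.5 to 20.3 CPM in population 1 and 20.6 to 28.0 CPM in population 2 in GM, and to 5.13 to 5.91 CPM and 6.10 to 12.6 CPM in DM3. The sums did not overlap in GM, and those of DM3 rest on a few reads, in the smallest libraries at less than the level of 3 counts (15.4 and 9.14 CPM). Their most abundant member, miR-126a-3p, was at 0.70 ± 0.37 (edgeR quasi-likelihood adjusted p = 0.217). Epithelial markers summed to between 0 and 20.9 CPM, miR-122-5p, the liver miRNA, to at most 28.2 CPM, and pluripotent cell markers to at most 4.43 CPM. Of the 3 neuronal markers 2 were above 0 in all 8 libraries, and the 3 summed to between 1231 and 2646 CPM. In GM the sums were 2115 to 2576 CPM in population 1 and 2428 to 2429 CPM in population 2, and in DM3 1231 to 2601 CPM and 2368 to 2646 CPM. miR-128-3p made up most of this, with a mean of 2191 CPM, and miR-124-3p was at 0 in all 8 libraries. The smooth muscle and fibroblast markers, led by miR-143-3p, summed to 28140 to 39725 CPM in population 1 and 35279 to 44647 CPM in population 2 in GM, with overlap. In DM3 they summed to 36662 to 39242 CPM and 41081 to 48972 CPM, higher in population 2 without overlap. miR-143-3p, at a mean of 33374 CPM, made up most of these sums, and the other detected members did not rise. Over both media miR-214-3p was at -0.51 (edgeR quasi-likelihood adjusted p = 0.0501). miR-145a-5p, with its names added up, was at -0.11 (edgeR quasi-likelihood adjusted p = 0.800). miR-199a-3p was at 0 as a name. The part of these cell types in the result was not tested.

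The tKO clones, fitted in the same way on their own 8 libraries, differed by 71 of 522 names (13.6%), or 10 without the pairs. Of these libraries clone 1 DM3 replicate 1 stood apart, with 66120 reads used, 71.2% of its reads at 18 to 25 nt and 23.4% in names that can hold ribosomal RNA fragments. Without it 55 names were called, 52 of them among the 71. The count was 39 without clone 1 DM3 replicate 2, 32 without clone 2 DM3 replicate 2, and between 53 and 66 without each of the other 5. The median absolute log2 fold change was 0.37 between clones and 0.34 between populations. The comparisons share no library, and 6 names were called in both, 12% of the population calls and 8.45% of the clone calls. Of these, 1 moved the same way: miR-181d-5p, higher in population 2 and in clone 2. The others, miR-7a-5p, miR-7a-2-5p, miR-741-3p, miR-881-3p and miR-93-5p, moved in opposite directions. let-7i-5p was at 0.05 between clones (edgeR quasi-likelihood adjusted p = 0.897), miR-21-5p at -0.07 (adjusted p = 0.839) and miR-22-3p at 0.17 (adjusted p = 0.593). Whether the comparisons differ in size at these names was not tested.

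The population difference was also set beside the change that differentiation brings. The change from GM to DM3 was taken from the tKO libraries, which share none with the populations, and across 458 names it correlated with the population difference with a Pearson r of 0.01 over both media, 0.07 in GM and -0.15 in DM3. Of the 68 tested names that rose on differentiation in tKO cells, 1 was called higher and 1 lower in population 2 in DM3. Of the 61 tested names that fell, 1 was also called higher and 1 lower, beside 14 higher and 10 lower among all 458. Without clone 1 DM3 replicate 1 of the tKO cells r over 469 names was 0.05, 0.09 and -0.10. Of 84 names that then rose, 1 was called higher and 2 lower, and of 59 that fell, 1 higher and 3 lower.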

How the data were processed

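Small RNA of 8 control and 8 tKO libraries was made with a NEBNext ligation kit and gel selection, per the labels' protocols. The submitters' processing notes name cutadapt 1.15, STAR 2.5.4 and mm10. The authors' deposited unitas tables, as the file names call them, give an expected count per sequence without normalization, some of them fractional, and how fractions arose is not given in the sources used here. Here sequences of 18 to 25 nt without a mismatch were summed per name and rounded. Reads used ran from 194915 to 5726648 per control library, so 3 counts are 0.524 to 15.4 CPM; reads have no molecular identifiers. edgeR 4.0.16 in R 4.3.3 fitted quasi-likelihood models to the 8 control libraries with TMM, filterByExpr (smallest count 10), 4 pairs and population, and Benjamini-Hochberg adjustment; the main fit has 3 residual degrees of freedom. DESeq2 1.42.0 was an alternative. The pairs by medium and replicate number were set with the comparison, before the fits. Same-numbered libraries deviated together (r = 0.32 in GM and 0.54 in DM3 over 256 names), as a description from these same libraries. On simulated data of 476 names, the fit recovered 50.7% of 1.5-fold, 95.5% of 2-fold and 100% of 4-fold changes, with 5.75% of calls false. The simulation drew pair effects and noise independently for each name, with no deviation of a library along the G and C share. The real libraries hold such deviations, so these rates do not carry over to them. The offset is a lowess curve of each library's deviation on G and C share (span 0.5, names of at least 50 CPM).

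Members and lists were chosen with earlier results of these data known. The text names the muscle list, the 10 most abundant names, up to 10 called names per direction of at least 50 CPM and the same direction in 4 of 4 pairs, 5 by interaction, and called members that lead a list. Other names were chosen after their values were seen. RefSeq held 26 of the 27 names looked up for sequence.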

Additional observations from a re-analysis of the deposited data

Results flagged for a closer look

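Among the 14 library properties, 2 stood apart in 1 library of population 1, by the gap to the nearest library relative to the range of the 4. Reads used in population 1 GM replicate 2, 4818026, lay far above the other 3 (194915 to 677012). The share of reads with a non-templated U (listed as T) in population 1 DM3 replicate 2 was 6.92%, below the 8.72% to 9.03% of the other 3. The 4 libraries of a population span both media, and chance flags about 1 in 20 such groups.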

How the results depend on the processing

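Over both media 50 names were called, and the count without the replicate block was 0. It was 30 with all lengths, 30 with all lengths and mismatches, 5 in replicate 1 alone, 0 in replicate 2 alone, 1 in GM alone, 0 in DM3 alone, 15 with the G and C offset and 0 with the offset and no replicate block; leaving out 1 library gave 0 to 46. In DM3 the 24 calls became 5 with DESeq2 size factors, 39 without the filter, 13 with DESeq2, 0 without the replicate block, 38 with all lengths, 97 with all lengths and mismatches and 9 with the offset, and 0 to 26 with a library left out, 0 to 8 of them without 1 of the 4 DM3 libraries. In GM the 0 calls became 1 without the filter, 5 with all lengths and mismatches and 1 without tailed reads, and 0 or 1 with a library left out. For the interaction the 0 calls became 1 without the filter, 1 with an additive replicate block, 5 with all lengths, 1 with mismatches, 5 with both, 2 without tailed reads and 2 without names that can hold rRNA fragments (this and the offset were chosen after seeing the data), and 0 to 3 with a library left out. The 71 calls between clones became 10 without the replicate block and 32 to 66 with a library left out, chosen after seeing the data. The causes were not tested.

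Of 26 called names followed over all alternatives run, 0 changed sign. Many of them were chosen for the same direction in 4 of 4 pairs, so fits of fewer libraries could hardly turn their sign. The call was kept in 383 of 752 fits and lost in 369. Of the uncalled names that the naming rule gives, these changed sign (log2 fold changes over both media). miR-133b-3p was at 0.19 without the filter, 0.10 with all 16 libraries, 0.052 with all lengths, 0.076 with mismatches, 0.30 with both, 0.057 with names added up, 0.35 in replicate 2 alone and 0.46 in GM alone. let-7c-5p was at 0.14, 0.031, 0.026, 0.032, 0.14 and 0.0086 under the first 6 of these. In GM alone miR-6240-3p was at 0.30, miR-3470b-5p at 0.52, miR-6240-5p at 0.51 and miR-3535-3p at 0.53, and in replicate 1 alone miR-34a-5p was at -0.059. With the offset miR-1a-3p was at -0.27, miR-486a-5p at 0.093, miR-99b-5p at 0.10 and miR-27b-3p at -0.0044, and with no replicate block as well at -0.33, 0.089, 0.080 and -0.0048. With a library left out the ranges were -0.78 to 0.92 for miR-1a-3p, -1.17 to 0.67 for the name miR-133a-3p, -0.24 to 0.36 for miR-133b-3p, -0.092 to 0.064 for let-7c-5p, -0.72 to 0.44 for miR-6240-3p, -1.63 to 0.26 for miR-3470b-5p, -1.35 to 0.15 for miR-6240-5p and -0.89 to 0.33 for miR-3535-3p. Fits of 1 medium or 1 replicate number, or without a library, have fewer samples. The smallest library sets the floor at 15.4 CPM, and with 4 pairs no exact test can fall below 0.125.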

Other observations

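Names outside the lists also moved, and apart from miR-501-3p those given here were chosen after their values were seen. miR-741-3p and miR-881-3p, miRNAs encoded on the X chromosome, were higher in population 2 in 4 of 4 pairs. miR-881-3p held 413 and 977 CPM in GM and 590 and 1095 CPM in DM3 in population 1, and 719.5 and 1130 CPM in GM and 881 and 1674 CPM in DM3 in population 2. Its log2 fold change was 0.65 ± 0.19 (edgeR quasi-likelihood adjusted p = 0.0251), and between tKO clones it went the other way, at -1.34. None of the 14 tested members of the list of other X-linked miRNAs around miR-465 passed, beside 10.4% of all 483 names called. Their median was 0.21, beside 0.02 over all names. miR-362-3p and miR-501-3p, both encoded in the Clcn5 gene, were called in opposite directions. miR-362-3p, at 8.09 to 20.5 CPM in population 1 and 17.9 to 27.4 CPM in population 2, was at 1.27 ± 0.36 (adjusted p = 0.0208), and miR-501-3p was at -0.64 ± 0.17 (adjusted p = 0.0182). Their reads held 41.3% and 55.1% G and C bases.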
